A study of Mus musculus with 9 samples.

Results

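The genes described here are 10 members of the signalling route that runs from the adaptor MyD88 through the IRAK kinases and TRAF6 to the kinase TAK1, together with the ubiquitin-editing brakes A20, ABIN1 and CYLD. They were chosen by name, as Irak1 and Traf6, known targets of the microRNA miR-146a, with their partners and negative regulators, and all 10 were found among the 55536 genes of the count file. Messenger RNA was sequenced from splenic CD4+ (helper) T cells of wild-type male mice, 6 to 12 weeks old. All cultures were activated through the antigen receptor and its costimulator with anti-CD3 and anti-CD28 beads, and received 5 ng/mL of murine IL-2. For the same 18 h, 3 cultures received EKO-BMDM-exo (here EKO_exo), exosomes of BMDM from ApoE-deficient mice, at 2e+09 particles per mL. BMDM usually stands for macrophages grown from bone marrow, and exosomes are small secreted vesicles. Another 3 cultures received WT-BMDM-exo (WT_exo), from wild-type mice, at the same dose, and 3 received PBS, a saline without vesicles. The ApoE deficiency lay in the exosome donors, so the T cells' own Apoe mRNA, at 16.7 to 19.0 CPM in EKO_exo, 17.0 to 19.4 CPM in WT_exo and 14.1 to 16.9 CPM in PBS, does not check those labels.

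As background, MyD88 couples Toll-like receptors and the receptors of IL-1, IL-18 and IL-33 to IRAK4, which activates IRAK1 and IRAK2. These recruit TRAF6, a ubiquitin ligase whose chains are bound by TAB2 and bring TAK1 to activate NF-kB and MAP kinases. In T cells signals of the antigen receptor can also reach TRAF6 and TAK1, and A20 and CYLD dampen both routes by removing or editing ubiquitin chains. The microRNA miR-146a is a known feedback inhibitor that lowers IRAK1 and TRAF6.

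The sequences that tie some of these genes to miR-146a are given first, since Irak1 and Traf6 were chosen as its known targets. The mature microRNA, from RefSeq (GRCm38.p6, chromosome 11, minus strand, 43374435 to 43374456), is shown with its seed, bases 2 to 8, in capitals. Below it stand all matches to the seed in the longest annotated 3′UTR of each member, 5′ to 3′ on the transcript, with the match in capitals. An 8mer is the complement of the seed followed by an A, and a 7mer-m8 lacks that A; only the sense strand was searched.
mmu-miR-146a-5p: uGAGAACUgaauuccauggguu
Irak1, base 40 of the 3′UTR: gactcagaggtcaaAGTTCTCAtgcttgg
Irak1, base 56: ttctcatgcttggaAGTTCTCAtagtgtg
Irak2, base 353: cccccaaacctcttAGTTCTCcacaacgg
Irak2, base 486: ccggtgtctccgcaAGTTCTCAagttcag
Traf6, base 460: ccgctctggtgttgAGTTCTCAtttagtt
Traf6, base 524: ccctggaaggcttaAGTTCTCAagtactc
Traf6, base 1336: gtactttggagtctAGTTCTCAgggagcc
Traf6, base 3860: gactttgctactgcAGTTCTCAaacatgg

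Traf6 held 4 8mers in a 3′UTR of 4170 bases, Irak1 held 2 in 1526 bases, and Irak2 held 1 8mer and 1 7mer-m8 in 1246 bases. The other 7 members held neither. Among 21173 genes of the count file with an annotated 3′UTR, 4.34% held at least 1 8mer and 11.9% an 8mer or a 7mer-m8. Irak1 and Traf6 were listed as known targets, so their matches follow from the choice of members. These shares are also not matched for 3′UTR length. A match describes letters only, and the mRNA libraries do not measure the mature microRNA.

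The promoters were searched on both strands for the NF-kB consensus motif in the RefSeq windows (GRCm38.p6) from 250 bases before to 50 bases after each gene's start. All 10 members had a window, and 4 of them held the motif, among them all of the brakes. Among 27018 genes with a window, 4.35% held it in the first window listed, which is also where these 4 members held it. The brakes were listed as negative regulators of this route, and A20 is known to be induced by NF-kB. Their matches may therefore follow in part from the choice of members, and a match describes letters only. The full window of Tnip1, the gene of ABIN1, and the first window of Tnfaip3, the gene of A20, are shown, with the motif in capitals. A second window of Tnfaip3 (chr10:19011914-19012213) held no motif, nor did the second windows of Irak1 and Tab2. Overlapping matches in Tnip1 form 1 run of 12 bases that starts 58 bases before the gene's start, and the Tnfaip3 matches start 125 and 12 bases before the start that RefSeq lists. GENCODE also annotates a Tnfaip3 transcript that starts farther upstream, so both matches lie within the gene span given with the values of Tnfaip3.
Tnip1 (chr11:54962891-54963190, minus strand): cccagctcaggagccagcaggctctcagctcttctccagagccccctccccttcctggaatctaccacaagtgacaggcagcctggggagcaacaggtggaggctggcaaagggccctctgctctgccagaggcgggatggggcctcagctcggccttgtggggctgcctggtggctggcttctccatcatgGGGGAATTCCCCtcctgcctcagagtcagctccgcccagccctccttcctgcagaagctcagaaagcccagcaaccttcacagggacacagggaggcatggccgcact
Tnfaip3 (chr10:19015361-19015660, minus strand): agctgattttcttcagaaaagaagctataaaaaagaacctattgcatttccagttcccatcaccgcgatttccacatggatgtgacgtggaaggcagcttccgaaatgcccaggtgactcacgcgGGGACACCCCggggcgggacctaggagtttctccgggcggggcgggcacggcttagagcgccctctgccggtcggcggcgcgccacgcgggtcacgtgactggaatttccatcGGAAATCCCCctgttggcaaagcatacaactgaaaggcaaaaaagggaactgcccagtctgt
For Cyld and Map3k7, only the surroundings of their single match are shown, which starts 155 bases before the start of Cyld and 92 bases before that of Map3k7.
Cyld (chromosome 8, plus strand): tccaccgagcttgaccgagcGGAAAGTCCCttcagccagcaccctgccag
Map3k7 (chromosome 4, plus strand): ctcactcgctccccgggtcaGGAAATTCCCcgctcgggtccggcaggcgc

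The libraries held 25792975 to 32971791 counts, and the lowest count of any member in any library was 674, for Irak4. CPM are counts scaled to a common library size, and p-values are those of edgeR's quasi-likelihood test, adjusted over 14684 tested genes by the Benjamini-Hochberg method and called under 0.05. Each EKO_exo library had fewer genes with a count (19038 to 19518) than any WT_exo (19989 to 20568) or PBS library (20120 to 20373). EKO_exo replicates 3, 1 and 2 lay farthest out on the first, the second and the third principal component, with 18.8%, 15.7% and 13.4% of the variance. Defining markers of CD4 T cells were high, with 9 of 9 tested and a summed 3286 to 3364 CPM in EKO_exo, 3129 to 3214 CPM in WT_exo and 3148 to 3257 CPM in PBS. The EKO_exo sums thus lay above all others, and Cd3e, a chain of the T cell receptor complex, rose with EKO_exo over PBS (log2 fold change 0.12, adjusted p = 0.0361). No other CD4 T cell marker passed in that comparison. Trbc1 and Cd28 were estimated below PBS (log2 fold changes -0.067 and -0.019) and the rest above it.

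With EKO_exo, 2 of the 10 members rose and none fell relative to PBS: Tnip1, which encodes the A20-binding protein ABIN1, and Traf6. With WT_exo, 1 of 10 rose, again Traf6, and none fell. Between EKO_exo and WT_exo no member passed the test. The changes were small, at most 12.8% for a called gene, and Irak1 did not pass in any comparison. Over all tested genes, 5.08% were called for EKO_exo over PBS (2.21% higher and 2.87% lower) and 4.97% for WT_exo over PBS (1.83% higher and 3.14% lower). For EKO_exo over WT_exo 0.0341% were called, 0.0272% higher and 0.00681% lower. Among the 6627 genes that averaged 25 CPM or more, as all members did, the shares called were 9.33%, 8.96% and 0.0604%. The single call with WT_exo, 10% of the members, is therefore near the share of genes called at such levels, and the 2 calls with EKO_exo are 1 gene more. The comparisons with PBS share the PBS libraries, so their values for a gene are not independent of each other.

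**Figure D1:**
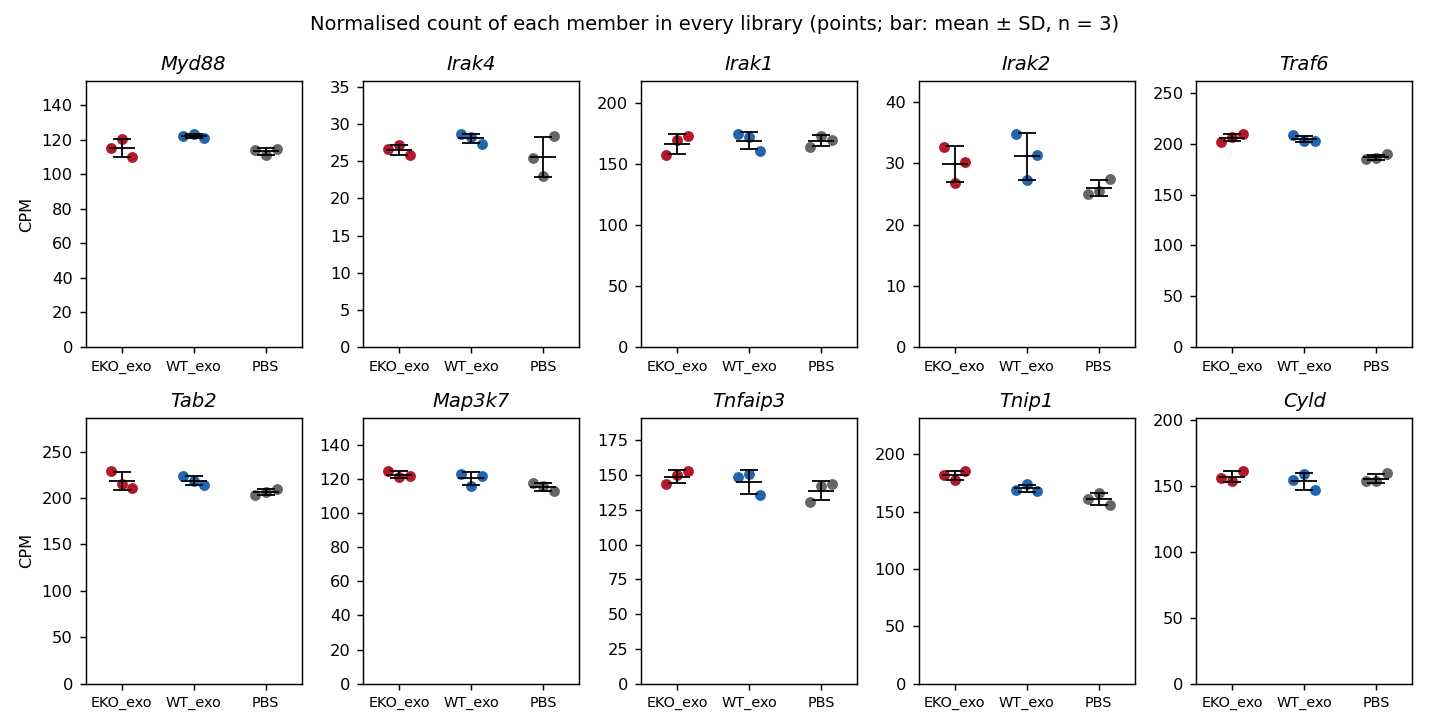
Normalised counts (CPM, vertical axes from 0) of the 10 members in the EKO_exo, WT_exo and PBS libraries; points are single libraries and bars the mean ± SD of 3. The 3 EKO_exo and 3 WT_exo points of Traf6 lie between 202 and 209 CPM, all above the PBS points, while the groups overlap for Irak1 and Cyld.

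Traf6, the ubiquitin ligase (ENSMUSG00000027164, GRCm38 chromosome 2, 101678429 to 101701669, plus strand), is the member with the most miR-146a seed matches. It had 202, 207 and 209 CPM in EKO_exo replicates 1, 2 and 3, 209, 203 and 203 CPM in WT_exo and 185, 186 and 189.9 CPM in PBS. Every library with exosomes lay above every PBS library, and the exosome groups overlapped. The log2 fold change was 0.14 ± 0.039 (SE) for EKO_exo over PBS, a rise of 10.2% (adjusted p = 0.0296). For WT_exo over PBS it was 0.13 ± 0.039, a rise of 9.48% (adjusted p = 0.046). EKO_exo over WT_exo gave 0.0098, with a 95% interval of -0.069 to 0.089 (adjusted p = 0.979).

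The Traf6 calls sat close to the threshold. For EKO_exo over PBS it did not hold when EKO_exo replicate 2, EKO_exo replicate 3 or any PBS library was left out (edgeR adjusted p 0.055 to 0.125). For WT_exo over PBS it did not hold when EKO_exo replicate 2 or any WT_exo or PBS library was left out (0.0568 to 0.193). Both were also lost without the filter on low counts (adjusted p = 0.0571 and 0.079), and the call with EKO_exo when only its own 6 libraries were fitted (0.057), while the log2 fold change stayed between 0.12 and 0.15 with each library left out. Without EKO_exo replicates 1 and 3, which lay farthest out, the value for EKO_exo over PBS was 0.145 (edgeR adjusted p = 0.226).

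Tnip1 (ENSMUSG00000020400, chromosome 11, 54910785 to 54962917, minus strand) encodes ABIN1, which binds ubiquitin chains and A20 and restrains NF-kB signalling. It had 182, 178 and 186 CPM in EKO_exo, 169, 174 and 169 CPM in WT_exo and 161, 166 and 156 CPM in PBS. The EKO_exo libraries lay above all WT_exo libraries, and these above all PBS libraries. The log2 fold change was 0.17 ± 0.042 for EKO_exo over PBS, a rise of 12.8% (adjusted p = 0.0117). It was 0.082 ± 0.042 for WT_exo over PBS, which did not pass (adjusted p = 0.344). EKO_exo over WT_exo gave 0.091, with a 95% interval of 0.0057 to 0.18 and an unadjusted p of 0.0374 by the edgeR test. That difference did not pass either (adjusted p = 0.68), so the groups cannot be said to differ. The call over PBS did not hold when PBS replicate 1 (edgeR adjusted p = 0.0504) or PBS replicate 3 (0.0779) was left out. Without EKO_exo replicates 1 and 3 the value was 0.139 (0.305).

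**Figure D2:**
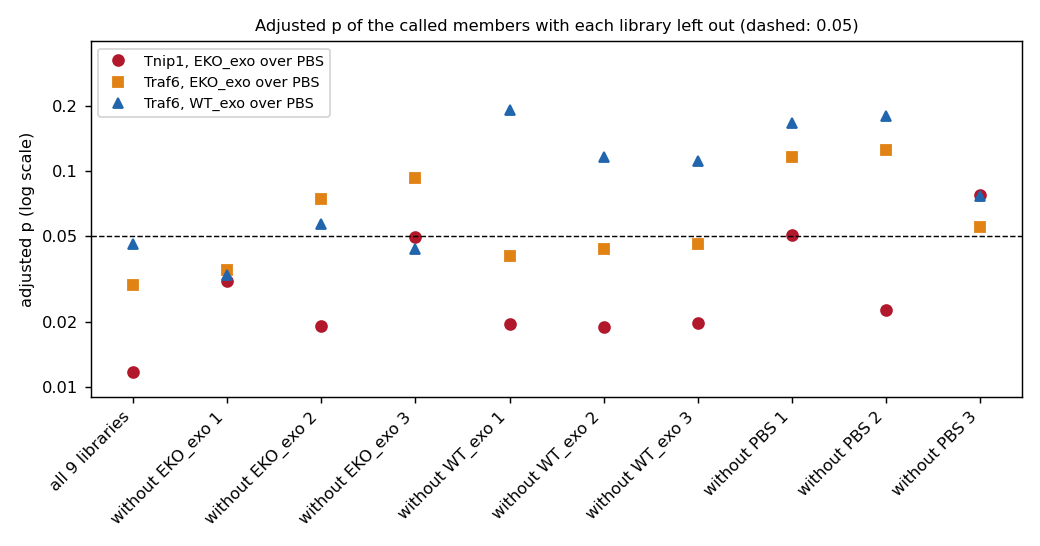
Adjusted p (log scale) of the 3 calls made among the members, with all 9 libraries and with each library left out in turn; the dashed line marks 0.05. Most Traf6 points lie above the line once an EKO_exo, WT_exo or PBS library of the comparison is missing, while Tnip1 crosses it without PBS replicate 1 or 3.

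Some markers of other cells differed between the same groups. The summed B cell markers (8 of 9 tested, Ms4a1 and Ebf1 under 1 CPM in all libraries) were 609.6 to 616 CPM in EKO_exo, 511 to 577 CPM in WT_exo and 523 to 565 CPM in PBS, mostly Ighm. EKO_exo thus stood above the other groups, as for Tnip1; Ighm and Igkc rose over PBS (edgeR adjusted p = 0.00795 and 0.0046), and Igkc over WT_exo (0.00219). The other 6 tested B cell markers, all low, did not pass over PBS: Blnk, Cd22 and Cd79a were estimated above PBS and Cd79b, Pax5 and Ms4a1 below it, with log2 fold changes between -0.58 and 0.98. The CD8 T cell markers, 2 of 2 tested, summed to 9.57 to 10.4 CPM in EKO_exo, 8.31 to 10.2 CPM in WT_exo and 11.2 to 12.3 CPM in PBS. Cd8b1 made up most of this, with means of 9.52, 8.58 and 11.1 CPM in EKO_exo, WT_exo and PBS. Cd8a had 0.465, 0.600 and 0.596 CPM, and neither gene passed in any comparison. Of 6 NK cell markers only Eomes was tested. The other 5 stayed under 1 CPM in all libraries, and Klra8 among them had no count. The 6 summed to 23.1 to 25.7 CPM in EKO_exo, 19.4 to 25.3 CPM in WT_exo and 15.8 to 19.1 CPM in PBS, nearly all of it Eomes. Eomes rose with EKO_exo over PBS (edgeR adjusted p = 0.017), so this rise is that of 1 gene. Of 12 macrophage and monocyte markers 4 were tested, Marco, Cd163 and Clec4f had no count and 6 others stayed under 1 CPM. Their sums overlapped, at 24.8 to 29.6 CPM in EKO_exo, 22.6 to 30.04 CPM in WT_exo and 19.4 to 29.8 CPM in PBS. Csf1r, low at a mean of 2.28 CPM in EKO_exo and 0.870 CPM in PBS, rose with EKO_exo over PBS (edgeR adjusted p = 0.0476). The other tested macrophage markers did not pass there. Cd68 and Cd14 were estimated below PBS (log2 fold changes -0.20 and -0.15) and Lyz2 above it (0.18). Dendritic cell markers (3 of 7 tested) summed to 9.84 to 12.2 CPM in EKO_exo, 9.38 to 12.9 CPM in WT_exo and 10.5 to 12.1 CPM in PBS. Neutrophil markers (3 of 7 tested) summed to 5.45 to 7.48 CPM in EKO_exo, 4.52 to 8.54 CPM in WT_exo and 3.56 to 6.51 CPM in PBS. S100a9, with no count in any WT_exo library and at most 0.688 CPM in PBS, fell with WT_exo over PBS (edgeR adjusted p = 0.0407). The other tested neutrophil markers, Mpo and Elane, were estimated above PBS with WT_exo (log2 fold changes 0.51 and 0.61) and did not pass. The part of these markers and of the CD4 T cell markers in the Traf6 and Tnip1 results was not tested, and in such bulk cultures more cells of a type and more RNA per cell cannot be told apart.

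Myd88, the adaptor at the head of the route (ENSMUSG00000032508, chromosome 9, 119335934 to 119341411, minus strand), had 115, 120.0 and 109.8 CPM in EKO_exo, 122, 123 and 121 CPM in WT_exo and 114, 111 and 115 CPM in PBS. The WT_exo libraries lay above every other library, and EKO_exo overlapped PBS. The log2 fold change was 0.023 ± 0.048 for EKO_exo over PBS (adjusted p = 0.883) and 0.11 ± 0.048 for WT_exo over PBS (adjusted p = 0.24). Between the exosome groups, EKO_exo over WT_exo, the value was -0.086, with a 95% interval of -0.18 to 0.012 (adjusted p = 0.755). None of these passed. Myd88 shares 290 exon bases with Acaa1a on the opposite strand, and the strand setting of the counting is not given in the sources used here, so reads there cannot be told apart. Acaa1a itself was not called, at 0.21 for EKO_exo over PBS and 0.13 for WT_exo over PBS on the log2 scale.

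Irak4, the first kinase recruited by MyD88 (ENSMUSG00000059883, chromosome 15, 94543643 to 94581815, plus strand), had 26.6, 27.2 and 25.9 CPM in EKO_exo, 28.7, 28.2 and 27.4 CPM in WT_exo and 25.4, 23.0 and 28.4 CPM in PBS. The PBS libraries spanned the EKO_exo values, while all WT_exo libraries lay above all EKO_exo libraries. Log2 fold changes were 0.053 ± 0.093 for EKO_exo over PBS, 0.13 ± 0.092 for WT_exo over PBS and -0.082 ± 0.093 for EKO_exo over WT_exo (adjusted p = 0.85, 0.544 and 0.91). For WT_exo over PBS the value was 0.063 without PBS replicate 2 and 0.21 without PBS replicate 3. Irak4 shares 395 exon bases with Twf1 on the opposite strand, which had 29.5 CPM in EKO_exo, 29.7 CPM in WT_exo and 27.6 CPM in PBS and was not called.

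Irak1, the kinase that carries 2 miR-146a matches close together near the start of its 3′UTR (ENSMUSG00000031392, chromosome X, 74013914 to 74023918, minus strand), had 158, 169.6 and 173 CPM in EKO_exo, 175, 173 and 161 CPM in WT_exo and 164, 173 and 169.6 CPM in PBS. All groups overlapped. The log2 fold change was -0.020 for EKO_exo over PBS, with a 95% interval of -0.11 to 0.073 (adjusted p = 0.89), and 0.0026 for WT_exo over PBS, with an interval of -0.091 to 0.096 (adjusted p = 0.99). For EKO_exo over WT_exo it was -0.023, with an interval of -0.12 to 0.070 (adjusted p = 0.954). Both intervals over PBS ended below the Traf6 estimate but overlapped the Traf6 intervals, 0.061 to 0.22 for EKO_exo and 0.051 to 0.21 for WT_exo. The genes were not tested against each other. The sign of the Irak1 values changed with the libraries included.

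Irak2, which can prolong signalling after IRAK1 (ENSMUSG00000060477, chromosome 6, 113638467 to 113695026, plus strand), was the most variable member. It had 32.6, 26.8 and 30.3 CPM in EKO_exo, 34.8, 27.2 and 31.4 CPM in WT_exo and 24.97, 25.5 and 27.4 CPM in PBS. In each exosome group, replicates 1 and 3 lay above every PBS library and replicate 2 did not. Its estimates over PBS were the largest among the members: 0.21 ± 0.099 for EKO_exo, an increase of 15.3% (adjusted p = 0.28), and 0.26 ± 0.098 for WT_exo, of 19.9% (adjusted p = 0.145). Neither passed, and without EKO_exo replicates 1 and 3 the value for EKO_exo was 0.048. The difference of EKO_exo from WT_exo was -0.057, with a 95% interval of -0.26 to 0.14 (adjusted p = 0.947). The coefficient of variation over the 9 libraries was 11.7% for Irak2, against 2.81% to 6.71% for the other members.

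Tab2, the ubiquitin-chain receptor of the TAK1 complex (ENSMUSG00000015755, chromosome 10, 7905653 to 7956230, minus strand), had 229, 215 and 211 CPM in EKO_exo, 224, 218 and 214 CPM in WT_exo and 203, 206 and 210.1 CPM in PBS. Libraries of both exosome groups lay above all PBS libraries. The log2 fold changes were 0.081 ± 0.040 for EKO_exo over PBS and 0.083 ± 0.040 for WT_exo over PBS, and neither passed (adjusted p = 0.304 and 0.311). Without EKO_exo replicate 1 the value for EKO_exo was 0.045. EKO_exo over WT_exo gave -0.0021, with an interval of -0.085 to 0.080 (adjusted p = 0.998).

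Map3k7, which encodes TAK1 itself (ENSMUSG00000028284, chromosome 4, 31964097 to 32023467, plus strand), had 125, 121 and 122 CPM in EKO_exo, 123, 116 and 122 CPM in WT_exo and 117, 116 and 113 CPM in PBS. EKO_exo lay above PBS in every library, and WT_exo overlapped both. The log2 fold changes were 0.089 ± 0.047 for EKO_exo over PBS and 0.062 ± 0.046 for WT_exo over PBS (adjusted p = 0.338 and 0.59), and 0.026 ± 0.046 for EKO_exo over WT_exo (adjusted p = 0.948).

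Tnfaip3 encodes A20, the ubiquitin-editing enzyme induced by NF-kB that ABIN1 assists (ENSMUSG00000019850, chromosome 10, 19000910 to 19015657, minus strand). It had 143, 150.3 and 153 CPM in EKO_exo, 149, 151 and 136 CPM in WT_exo and 131, 142 and 143 CPM in PBS. EKO_exo lay just above PBS in every library, and WT_exo spanned part of both. The log2 fold changes were 0.10 ± 0.049 for EKO_exo over PBS and 0.064 ± 0.049 for WT_exo over PBS (adjusted p = 0.28 and 0.607). Without PBS replicate 1 they were 0.062 and 0.024, and the value for WT_exo was 0.035 without WT_exo replicate 2 and 0.11 without WT_exo replicate 3. EKO_exo over WT_exo gave 0.038, with an interval of -0.063 to 0.14 (adjusted p = 0.923). A20 mRNA did not pass in any comparison.

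Cyld, a deubiquitinase that removes chains made by TRAF6 (ENSMUSG00000036712, chromosome 8, 88697028 to 88751945, plus strand), had 156, 154 and 162 CPM in EKO_exo, 155, 159 and 147 CPM in WT_exo and 154, 154 and 159.7 CPM in PBS. All groups overlapped. Its log2 fold changes were 0.015 ± 0.044, -0.019 ± 0.044 and 0.034 ± 0.044 for EKO_exo over PBS, WT_exo over PBS and EKO_exo over WT_exo (adjusted p = 0.92, 0.909 and 0.924). Its coefficient of variation over the 9 libraries, 2.81%, was the lowest among the members.

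**Figure D3:**
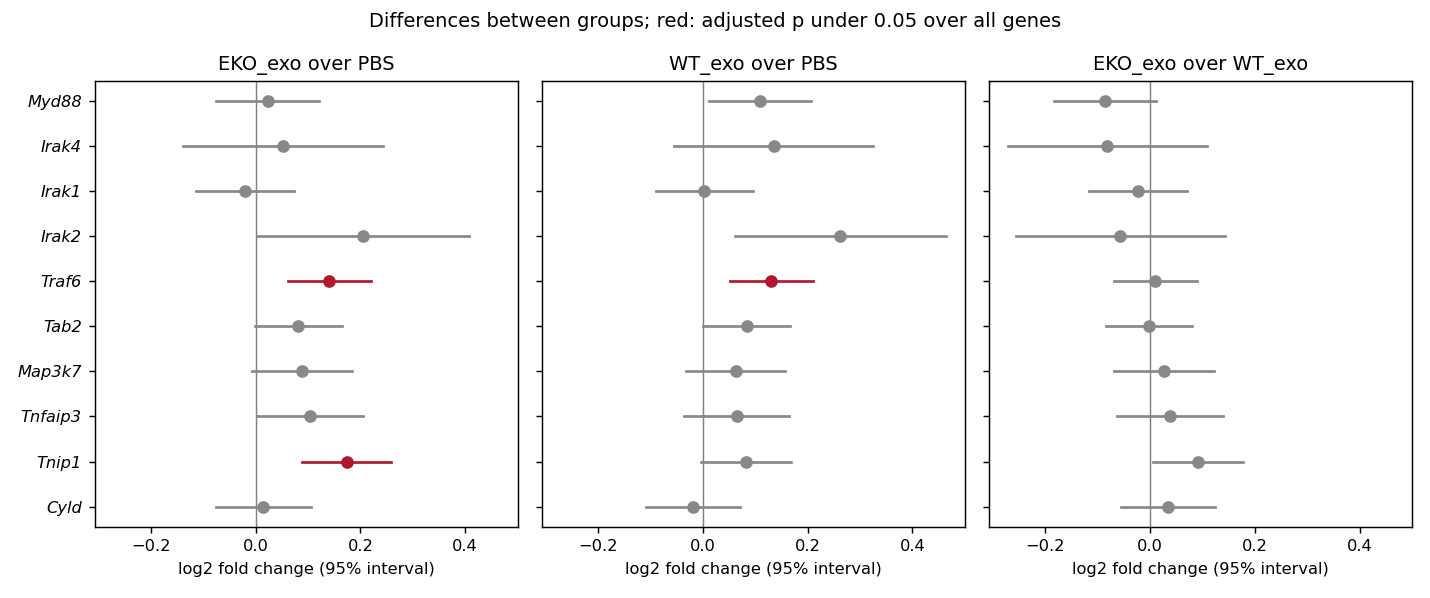
Log2 fold changes (horizontal axis) of the 10 members in the 3 comparisons, with 95% intervals that are not adjusted for the number of genes; red marks an adjusted p under 0.05. Traf6 and Tnip1 are red for EKO_exo over PBS, Traf6 for WT_exo over PBS, and no member is red for EKO_exo over WT_exo.

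Over the whole list, 9 of 10 fold changes were above 0 for EKO_exo over PBS, all but that of Irak1, and 9 of 10 for WT_exo over PBS, all but that of Cyld. The median log2 fold change was 0.085 for EKO_exo over PBS and 0.083 for WT_exo over PBS, beside 3.8e-05 and 0.0031 over all tested genes. Because the members were chosen with earlier results of these data known, the counts and medians of the list are a description only. For EKO_exo over WT_exo, 5 were above 0 and 5 below, with a median of 0.0039 beside 0.0016 over all genes. Libraries of EKO_exo lay above all PBS libraries for 5 members, where 9.94% of all tested genes did so, and those of WT_exo for 4, where 10.6% did. The 5 were Traf6, Tab2, Map3k7, Tnfaip3 and Tnip1, and the 4 were Myd88, Traf6, Tab2 and Tnip1. EKO_exo lay above WT_exo for 1, Tnip1 (5.88% of all genes), and below it for 2, Myd88 and Irak4 (5.97%). No member lay wholly below PBS in either exosome group, where 10.6% of all tested genes did so for EKO_exo and 11.6% for WT_exo. The shares cover genes of all levels, while every member averaged 25 CPM or more, and both counts over PBS use the same PBS libraries. Some margins were narrow: for Tnfaip3 the lowest EKO_exo library had 143.47 CPM and the highest PBS library 143.23 CPM.

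Per kilobase of exon sequence, the members spanned an 8.94-fold range in PBS. Tnip1 and Myd88 stood at the top, at 51.3 and 44.7 CPM per kilobase in EKO_exo, 48.2 and 47.4 in WT_exo and 45.5 and 44.0 in PBS. Their libraries overlapped in WT_exo and in PBS but not in EKO_exo. Irak1 and Tab2 followed, at 35.4 and 35.6 CPM per kilobase in EKO_exo, 35.9 and 35.7 in WT_exo and 35.9 and 33.7 in PBS, overlapping each other in both exosome groups. Traf6 came next, at 26.1 CPM per kilobase in EKO_exo, 25.97 in WT_exo and 23.7 in PBS. Tnfaip3 and Map3k7, at 19.2 and 18.0 in PBS, overlapped in WT_exo and PBS. Cyld, at 12.4 CPM per kilobase in PBS, stood below these. The lowest were Irak2, at 6.78 CPM per kilobase in EKO_exo, 7.06 in WT_exo and 5.88 in PBS, and Irak4, at 5.29, 5.59 and 5.09. By this length the libraries of Irak2 and Irak4 did not overlap in any group. The margin in PBS was narrow, with the lowest Irak2 library at 5.659 and the highest Irak4 library at 5.646 CPM per kilobase. Among the IRAK kinases, Irak1 mRNA was thus several times as abundant as the others per length. With the longest annotated transcript as the length, Tab2 moved above Myd88 and Irak1 in PBS and the range was 7.28-fold.

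**Figure D4:**
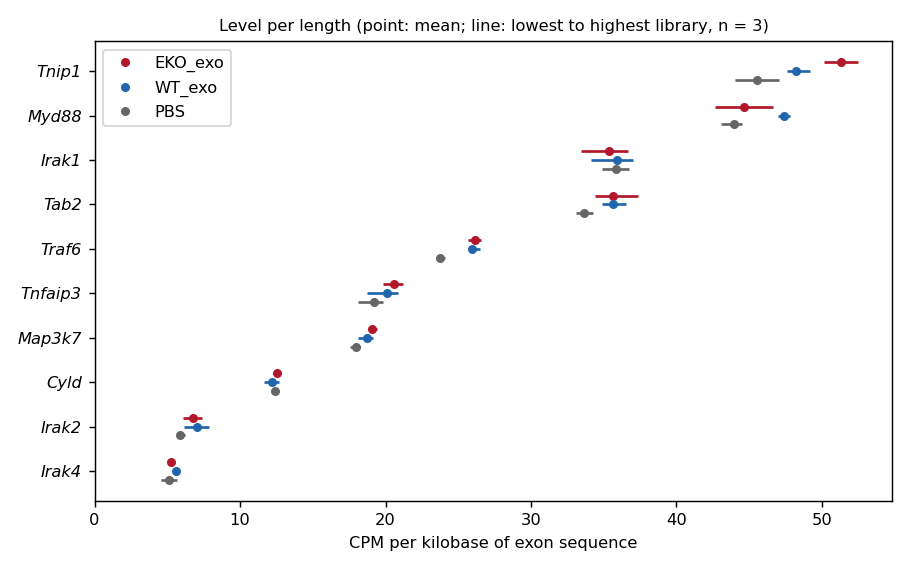
Level per length of the 10 members (CPM per kilobase of exon sequence, axis from 0), ordered by their PBS means; points are means and lines run from the lowest to the highest of 3 libraries in EKO_exo, WT_exo and PBS. Tnip1 and Myd88 lie highest, from 42.6 CPM per kilobase upward in every library, and Irak2 and Irak4 lowest.

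The wider pathway was described from 6 lists with 70 genes, of which 63 were tested. With EKO_exo 2 of 63 rose relative to PBS and none fell (3.17%, beside 5.08% of all genes), with a median log2 fold change of 0.013. With WT_exo 2 of 63 also rose and none fell (3.17%, beside 4.97%), with a median of 0.054. Between EKO_exo and WT_exo 0 of 63 passed. The genes that rose were Prkcq and Rnf31 in both comparisons.

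Prkcq, the kinase PKC theta that acts below the T cell receptor, had 239.8, 237 and 237 CPM in EKO_exo, 249, 241 and 253 CPM in WT_exo and 214, 206 and 228 CPM in PBS. All exosome libraries lay above all PBS libraries. The log2 fold change was 0.14 ± 0.040 for EKO_exo over PBS (adjusted p = 0.0385) and 0.20 ± 0.040 for WT_exo over PBS (adjusted p = 0.0024). The other 2 genes of the T cell receptor signalling list did not pass. The Prkcq call with EKO_exo was lost in 8 of 9 fits that left out a library, all but the fit without PBS replicate 3 (edgeR adjusted p up to 0.256), and when only the EKO_exo and PBS libraries were fitted (0.0703). The call with WT_exo held in each fit that left out a library and with only the WT_exo and PBS libraries fitted.

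Rnf31 encodes HOIP, the catalytic subunit of the ligase that makes linear ubiquitin chains, to which ABIN1 and A20 bind. It had 132, 126 and 137 CPM in EKO_exo, 125, 140.2 and 124 CPM in WT_exo and 115, 109 and 116 CPM in PBS. Here too every exosome library lay above every PBS library. The log2 fold change was 0.22 ± 0.052 for EKO_exo over PBS (adjusted p = 0.0117) and 0.19 ± 0.052 for WT_exo over PBS (adjusted p = 0.0259). The other 5 genes of the IKK and linear ubiquitin ligase list, including its partners Rbck1 and Sharpin, did not pass. The Rnf31 call for EKO_exo did not hold when EKO_exo replicate 3 (edgeR adjusted p = 0.0554) or PBS replicate 2 (0.106) was left out. That for WT_exo did not hold when WT_exo replicate 2 (0.262), PBS replicate 1 (0.0641) or PBS replicate 2 (0.19) was left out. Without EKO_exo replicates 1 and 3, the calls of Prkcq (0.289) and Rnf31 (0.371) for EKO_exo over PBS did not hold either.

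The receptors and membrane-near partners differed widely in CPM, which is not scaled for gene length here. Of 25 receptors and membrane-near partners 19 were tested, and none passed in any comparison. Il1r1, the signalling receptor of IL-1, had 0.823 ± 0.44 CPM in EKO_exo, 1.11 ± 0.59 CPM in WT_exo and 0.959 ± 0.36 CPM in PBS (SD, n = 3 each). Il18r1, a chain of the IL-18 receptor, had 13.8 ± 0.92 CPM in EKO_exo, 12.4 ± 2.1 CPM in WT_exo and 12.0 ± 1.1 CPM in PBS. Sigirr, an inhibitory receptor of this family, had 71.3 ± 2.1 CPM in EKO_exo, 74.9 ± 4.6 CPM in WT_exo and 77.2 ± 1.7 CPM in PBS. Its EKO_exo libraries lay below all PBS libraries, as for 10.6% of all tested genes, without passing the test (edgeR adjusted p = 0.331). In the same list Tlr7 and Il1rap also lay wholly below PBS with EKO_exo, and Tlr1, Tlr12 and Ticam2 wholly above it. Irak3, an inhibitory IRAK that is best known from macrophages, had 3.59 ± 0.68 CPM in EKO_exo, 3.65 ± 0.50 CPM in WT_exo and 3.80 ± 0.70 CPM in PBS.

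None of 13 tested TRAF6 and TAK1 partners, 13 A20 partners and other deubiquitinases, or 9 MAP kinases and their kinases below TAK1 passed in any comparison. Among them, Zc3h12a, which encodes the mRNA-degrading brake Regnase-1, had the highest estimate of the A20 list, 0.22 for EKO_exo over PBS (adjusted p = 0.0833) and 0.16 for WT_exo over PBS on the log2 scale. For EKO_exo it passed by DESeq2 (adjusted p = 0.0452) and among genes averaging 5 CPM or more (0.0411). Peli1, a ubiquitin ligase of the IRAK kinases, had 112 ± 4.9 CPM in EKO_exo, 112 ± 3.8 CPM in WT_exo and 104 ± 9.2 CPM in PBS. Median log2 fold changes of these lists lay between 0.0013 and 0.018 for EKO_exo over PBS and between 0.0043 and 0.061 for WT_exo over PBS.

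**Figure D5:**
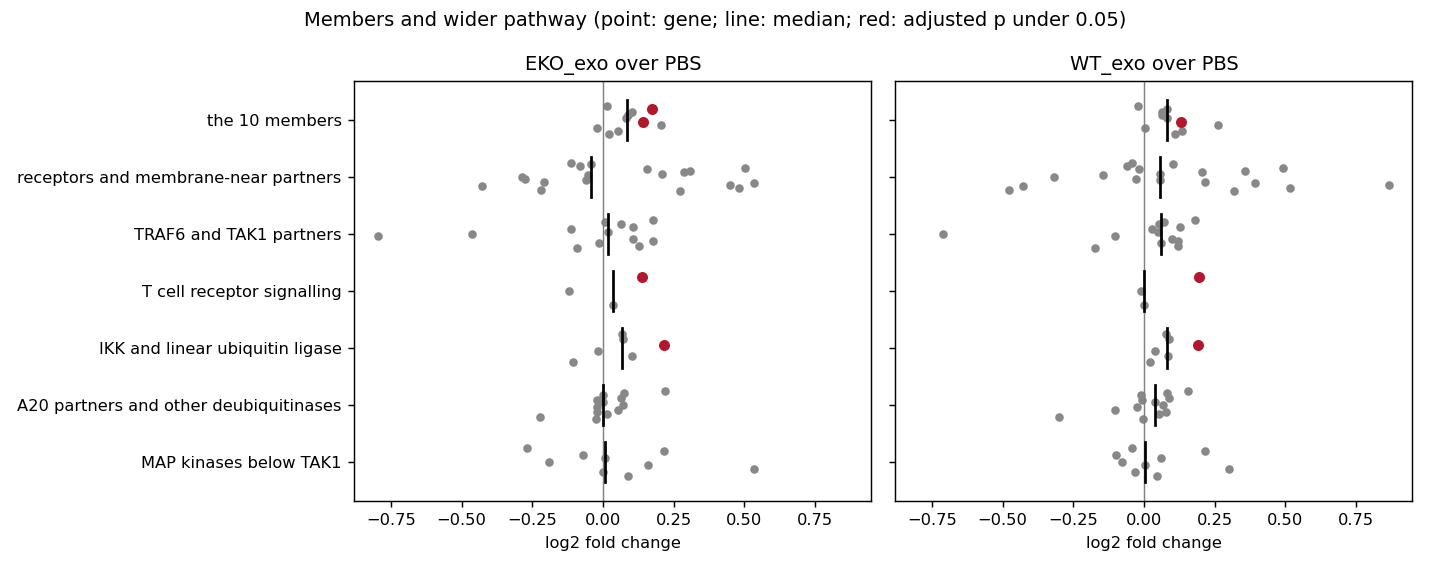
Log2 fold changes (horizontal axis) of the 10 members and of the 6 wider pathway lists over PBS, for EKO_exo on the left and WT_exo on the right; points are genes, lines medians, and red marks an adjusted p under 0.05. Only Prkcq and Rnf31 are red outside the members.

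The genes that share the 8mer of Traf6, Irak1 and Irak2 were counted across the tested set. Of 602 tested genes with an 8mer, 3.32% rose and 4.82% fell for EKO_exo over PBS, beside 2.69% and 3.45% of all 11954 tested genes with an annotated 3′UTR. For WT_exo over PBS 1.83% rose and 4.49% fell, beside 2.17% and 3.73%. For EKO_exo over WT_exo 0 of 602 passed, beside 4 of the 11954. The median log2 fold change of the 8mer genes was -0.012 for EKO_exo over PBS, 0.0051 for WT_exo over PBS and -0.0085 for EKO_exo over WT_exo, beside -0.0011, -0.00012 and 0.0019 for all these genes. Genes with an 8mer also had longer 3′UTRs, with a median of 2754 bases beside 1352.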

How the data were processed

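The authors deposited whole-number counts per Ensembl gene, not normalized; STAR 2.7.5c and the GRCm38 build are named per the submitters' processing notes. Neither the counting tool nor its annotation is given in the sources used here. Per the labels' protocols, RNA came from the Qiagen RNeasy Mini Kit and libraries from the Universal Plus mRNA-Seq kit. Symbols, coordinates and 3′UTRs came from GENCODE M21 (all 55536 identifiers matched).

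All 9 libraries entered edgeR 4.0.16 (R 4.3.3): filterByExpr (minimum count 10), TMM scaling, 1 quasi-likelihood fit with the 3 groups, Benjamini-Hochberg adjustment over 14684 genes. The series' design describes biological replicates without saying whether they came from different mice, and the p-values cover only the spread among these cultures, which may be technical. Chi-square per degree of freedom between libraries of a group ran from 6.75 to 9.54 in EKO_exo, 5.25 to 5.53 in WT_exo and 5.21 to 6.16 in PBS. All were above sampling noise. EKO_exo was thus the most spread group, while the fit used 1 estimate of the spread for all groups. Alternatives were RLE scaling, DESeq2 1.42.0, other filters, a replicate block, fits of 2 groups and leaving out libraries. All members are named; of the lists, up to 3 called genes per list and comparison, by smallest p; and for Irak1, Traf6 and Tnfaip3 the 3 best-correlated genes. Il1r1, Il18r1, Sigirr, Irak3, Peli1 and Zc3h12a were chosen after their values were seen. Some listed genes are not reported here. Members and lists were chosen with earlier results of these data known, and the share of calls at 25 CPM or more was added after seeing the data.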

Additional observations from a re-analysis of the deposited data

How the results depend on the processing

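For the 12 named genes (the members, Prkcq and Rnf31) in 3 comparisons, 278 values with 1 library left out kept their direction and their side of the threshold, 27 lost a call and 19 changed sign; under other alternatives 236 kept both, 11 lost a call and 5 changed sign. The members called for EKO_exo over PBS went to 1 without a filter on low counts, with the replicate block and with only the 2 groups fitted, and ranged from 0 to 2 with 1 library left out. Those for WT_exo over PBS went to 0 without the filter and with the block, and ranged from 0 to 1. Pathway genes called for EKO_exo over PBS went to 1 with only the 2 groups fitted and ranged from 0 to 2, and those for WT_exo over PBS went to 1 with the block and ranged from 1 to 2. They rose to 3 for EKO_exo with DESeq2 and at a mean of at least 5 CPM, by Zc3h12a, and to 3 for WT_exo with DESeq2 and with only the 2 groups fitted, by Tlr1; without EKO_exo replicate 2, Map3k8 was called lower for EKO_exo over PBS (-0.423, edgeR adjusted p = 0.0337). RLE scaling, DESeq2 and a mean of at least 5 CPM changed no count of called members. Without EKO_exo replicates 1 and 3, an alternative chosen after seeing the data, 0 members and 0 pathway genes were called for EKO_exo over PBS, with Traf6 at 0.145 (edgeR adjusted p = 0.226) and Tnip1 at 0.139 (0.305). The spread of the lone EKO_exo library was then taken from the other groups.

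All genes called for EKO_exo over PBS numbered 746, 375 to 687 with 1 library left out (399 without PBS replicate 1 and 375 without PBS replicate 2) and 249 without both of those EKO_exo libraries. For WT_exo over PBS they numbered 730, with a range of 399 to 870 (410 and 399 without PBS replicates 1 and 2, and 441, 430 and 432 without WT_exo replicates 1, 2 and 3). For EKO_exo over WT_exo they numbered 5, against 32 by DESeq2, 28 without the filter, 9 at a mean of at least 5 CPM, 1 with the block, 0 to 6 with 1 library left out and 0 without both; 0 members were called in any of these, while 1039 of all genes and 1 member, Tnip1, had an unadjusted p under 0.05 by edgeR.

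Signs changed only among values that were not called. Without both EKO_exo libraries, Irak1 was at 0.00328 and Cyld at -0.0175 over PBS, and Irak1 at 0.00141 and Rnf31 at -0.0374 over WT_exo; Irak1 for WT_exo over PBS was at -0.00155 at a mean of at least 5 CPM. With 1 library left out, the log2 fold change for EKO_exo over PBS ranged from -0.0115 to 0.0544 for Myd88, -0.0183 to 0.131 for Irak4, -0.0491 to 0.0181 for Irak1 and -0.00664 to 0.0297 for Cyld. For WT_exo over PBS it ranged from -0.0194 to 0.0375 for Irak1 and -0.0467 to 0.0116 for Cyld. For EKO_exo over WT_exo it ranged from -0.0587 to 0.0159 for Irak1, -0.143 to 0.0294 for Irak2, -0.00254 to 0.0239 for Traf6, -0.0378 to 0.022 for Tab2, -0.00854 to 0.0686 for Tnfaip3 and -0.00939 to 0.0838 for Rnf31. Without a sign change, values for EKO_exo over WT_exo ranged from -0.118 to -0.0537 for Myd88, 0.00272 to 0.0424 for Map3k7 and 0.00212 to 0.0615 for Cyld. The cause of these changes was not tested.

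With the replicate number as a block, the adjusted p of Traf6 was 0.0503 for EKO_exo and 0.0723 for WT_exo over PBS and that of Rnf31 0.0508 for WT_exo over PBS; no other call among the members, Prkcq and Rnf31 was lost, and the cell type markers were not refitted with the block. The numbers showed no pairing: deviations of same-numbered libraries from their group means correlated at -0.0203 to 0.0236, and a library was closest to its own number in 4 of 18 cases. With the longest transcript as length the range of levels was 7.28-fold, against 8.94-fold. The share of miR-146a seed-match genes called was 6.78% for EKO_exo and 6.54% for WT_exo over PBS with 7mer-m8 matches added, against 8.14% and 6.31% with 8mers alone.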

Other observations

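Within each library, the ratio of Irak2 to Irak1 counts, which needs no scaling between libraries, was 0.207, 0.158 and 0.175 in EKO_exo, 0.199, 0.158 and 0.195 in WT_exo and 0.152, 0.147 and 0.161 in PBS. Replicates 1 and 3 of both exosome groups lay above all PBS libraries and replicate 2 of each lay among them. The ratio of Tnfaip3 to Traf6 counts, brake to ligase, was 0.710, 0.727 and 0.730 in EKO_exo, 0.713, 0.744 and 0.669 in WT_exo and 0.705, 0.764 and 0.754 in PBS, so the groups overlapped.

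Among 9236 other genes that averaged 5 CPM or more, those whose log2 CPM followed Traf6 most closely over the 9 libraries were Ap5b1 (Pearson r = 0.986), Ifi47 (0.985) and Wtap (0.967). Those for Irak1 were Zbtb14 (0.925), Lrfn4 (0.917) and Rps4x (0.916), and those for Tnfaip3 were Polr3g (0.937), Snx30 (0.921) and Elmo1 (0.918). These values describe 9 libraries that share their groups and depth, the genes are the highest of many, and no p is given.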
